A study of Mus musculus with 12 samples.

Results

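MHC class I molecules display peptides cut from the cell's own proteins to CD8+ T cells. Proteasomes cut the proteins, and interferon can replace the constitutive catalytic subunits with those of the immunoproteasome. The TAP transporter moves the peptides into the endoplasmic reticulum, where tapasin holds TAP next to empty heavy chains paired with β2-microglobulin, and the transactivator NLRC5 drives transcription of much of the set. The genes followed here are 10 members of this machinery, chosen by symbol: B2m, H2-K1, H2-D1, Tap1, Tap2, Tapbp, Psmb8, Psmb9, Psmb10 and Nlrc5. All 10 were found among the 55573 genes in the count table, and all 10 were among the 13836 genes that passed the filter on low counts and were tested.

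RNA-sequencing gave the expression of tumourspheres, free-floating spheres grown from the mouse mammary tumour lines A1005, A1129 and A1471. Each line came from a single spindloid (spindle-shaped, mesenchymal) tumour of the genotype MMTV-Metmt;Trp53fl/+;Cre, in which the mammary MMTV promoter drives an activated Met receptor and Cre removes a floxed Trp53 allele. Every group, controls included, therefore carried the same alleles. The 4 groups were the vehicle DMSO, the Met inhibitor Crizotinib, the FGF receptor inhibitor PD173074 and both together (Combo), each for 24 h and each inhibitor at 1 µM, with 1 library from each of the 3 lines (n = 3). The lines are the replicates, and the spheres were grown in culture, outside an animal.

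Total counts ran from 13031492 to 17750476 per library. Vim, a mesenchymal marker, stood between 1903 and 3204 CPM (counts scaled to a common library size with TMM normalization), while the epithelial markers Cdh1 and Epcam had at most 0.564 and 2.08 CPM. Other markers of both kinds differed from these. The keratin genes Krt8 and Krt18, also epithelial markers, ran from 1.12 to 34 CPM and from 4 to 49.4 CPM. The mesenchymal markers Cdh2 and Snai2 had at most 0.453 and 2.41 CPM. Of 17 immune cell markers, 7 had no count in any library (among them Cd3d, Cd8a, Lyz2 and Ncr1) and 11 had 3 counts or fewer in every library. Ptprc, the leukocyte antigen CD45, was at 13.6 to 20.5 CPM in the A1005 libraries and at most 0.138 CPM in the other lines. The summed level of the 17 markers was 31.8 to 42.7 CPM in A1005 and 5.06 to 11 CPM elsewhere, and from DMSO to Combo it went from 31.8 to 42.7 CPM in A1005, from 5.06 to 11 CPM in A1129 and from 6.49 to 8.68 CPM in A1471. Without Ptprc the sum was 14.6 to 25.3 CPM in A1005. Cd68, a macrophage marker named after its values were seen, was at 17.7, 4.21 and 5.18 CPM with DMSO and at 24.4, 10.8 and 8.22 CPM with Combo in A1005, A1129 and A1471 (adjusted p = 0.624 unpaired, and 0.00603 with the block). Mean CPM of Flt3, Csf1r and Itgax went the other way, from 0.538, 0.119 and 0.132 with DMSO to 0.165, 0.046 and 0 with Combo. Of the 3 markers tested, 1 was called higher and 1 lower with the block, where 28.6% and 26.2% of genes tested were, and 0 unpaired. The part of these markers in the differences between lines and between treatments was not tested. Of 7 fibroblast and endothelial markers Thy1 had no count, and their summed level was 106 to 176 CPM with DMSO, 106 to 211 CPM with Crizotinib, 188 to 390 CPM with PD173074 and 188 to 493 CPM with Combo. The endothelial markers Pecam1, Cdh5 and Kdr had at most 0.5, 0.342 and 0.251 CPM, so nearly all of the sum came from Pdgfra, Pdgfrb and Dcn. The share of counts on mitochondrial genes also moved with treatment, from 1.21 to 1.29% with DMSO through 1.44 to 1.48% with Crizotinib and 1.53 to 1.66% with PD173074 to 1.93 to 2.52% with Combo. The part of either in the differences between treatments was not tested. Bulk counts cannot separate fewer cells of a type from less RNA per cell.

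The upstream sequence of the 3 genes that encode the surface molecule is shown because the heavy chain genes carry the same letters at the same spacing. RefSeq promoters of build GRCm38.p6 were matched for 8 of the 10 genes (not Tap2 and Nlrc5). The sequences are the 250 bases before the annotated start, 5′ to 3′ on the strand of the gene. The sequences lie at chr2:122147437-122147686 on the plus strand for B2m, at chr17:34000348-34000597 on the minus strand for H2-K1 and at chr17:35262844-35263093 on the plus strand for H2-D1. Capitals mark matches to the motifs searched on both strands, which were GAAANNGAA (the core of an interferon-stimulated response element), TTCNNNGAA (a gamma-activated site), GGGNNTTCC (a κB-type site) and TGACG (the core letters of the cyclic AMP response element).
B2m: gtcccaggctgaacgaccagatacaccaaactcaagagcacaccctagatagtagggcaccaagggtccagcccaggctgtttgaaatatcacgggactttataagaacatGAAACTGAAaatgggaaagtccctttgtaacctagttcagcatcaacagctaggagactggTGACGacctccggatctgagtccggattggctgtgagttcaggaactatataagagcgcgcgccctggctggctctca
H2-K1: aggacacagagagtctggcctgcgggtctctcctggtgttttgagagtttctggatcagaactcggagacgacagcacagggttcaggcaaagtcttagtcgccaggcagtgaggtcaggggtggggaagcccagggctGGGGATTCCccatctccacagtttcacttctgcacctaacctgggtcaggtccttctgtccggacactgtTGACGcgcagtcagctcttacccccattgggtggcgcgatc
H2-D1: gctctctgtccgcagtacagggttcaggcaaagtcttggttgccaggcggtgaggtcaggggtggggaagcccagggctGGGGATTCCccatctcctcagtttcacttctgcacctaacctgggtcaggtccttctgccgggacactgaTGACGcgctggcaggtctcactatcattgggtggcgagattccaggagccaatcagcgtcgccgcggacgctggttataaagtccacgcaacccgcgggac
H2-K1 and H2-D1 both held GGGGATTCC, which began 111 and 171 bases before the start, followed 70 bases later by TGACG in each gene. From another annotated start of H2-K1, not shown, the same matches began at 125 and 55 bases before the start. B2m held no κB-type match but held GAAACTGAA at 139 bases and TGACG at 78 bases before the start. Psmb8 had a gamma-activated match, TTCCCAGAA, at 97 bases before its start. Tap1 and Psmb9 are transcribed away from each other and their 300-base windows share 275 bases, so the TGACG match at 86 bases before Tap1 and at 144 bases before Psmb9 is in the shared stretch. The windows of Psmb10 and Tapbp held none of these letters. For comparison, 8.56% of the 32851 promoters in the table held the interferon response core, 8.3% the gamma-activated site, 5.82% the κB-type site and 20.8% TGACG. These matches are letters in a window and say nothing of what binds there. A site spelled otherwise would be missed, so a gene without a match may still hold such a site.

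In vehicle-treated cells the order of levels was read from CPM per kilobase of exon (the union of all annotated exons). With DMSO, B2m led at 377 ± 175 CPM per kb (SD, n = 3), above H2-D1 at 135 ± 104 and H2-K1 at 88.8 ± 28.4. Tapbp followed at 42.3 ± 22 CPM per kb and Psmb10 at 18.8 ± 0.848 CPM per kb. Psmb8 at 6.74 ± 10.8, Tap2 at 4.49 ± 6.65, Tap1 at 1.16 ± 1.59, Psmb9 at 1.13 ± 1.69 and Nlrc5 at 0.649 ± 0.993 CPM per kb had standard deviations above their means. The lowest Tapbp library, 22.5 CPM per kb, was above the highest Psmb10 library, 19.8 CPM per kb, whereas H2-D1 and H2-K1, H2-K1 and Tapbp, and the genes from Psmb10 down overlapped with their neighbours in this order. B2m and H2-D1 did not overlap with exon-union lengths (lowest 272 against highest 255 CPM per kb) but did with principal transcript lengths (272 against 313 CPM per kb), a measure chosen after the data were seen.

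**Figure D1:**
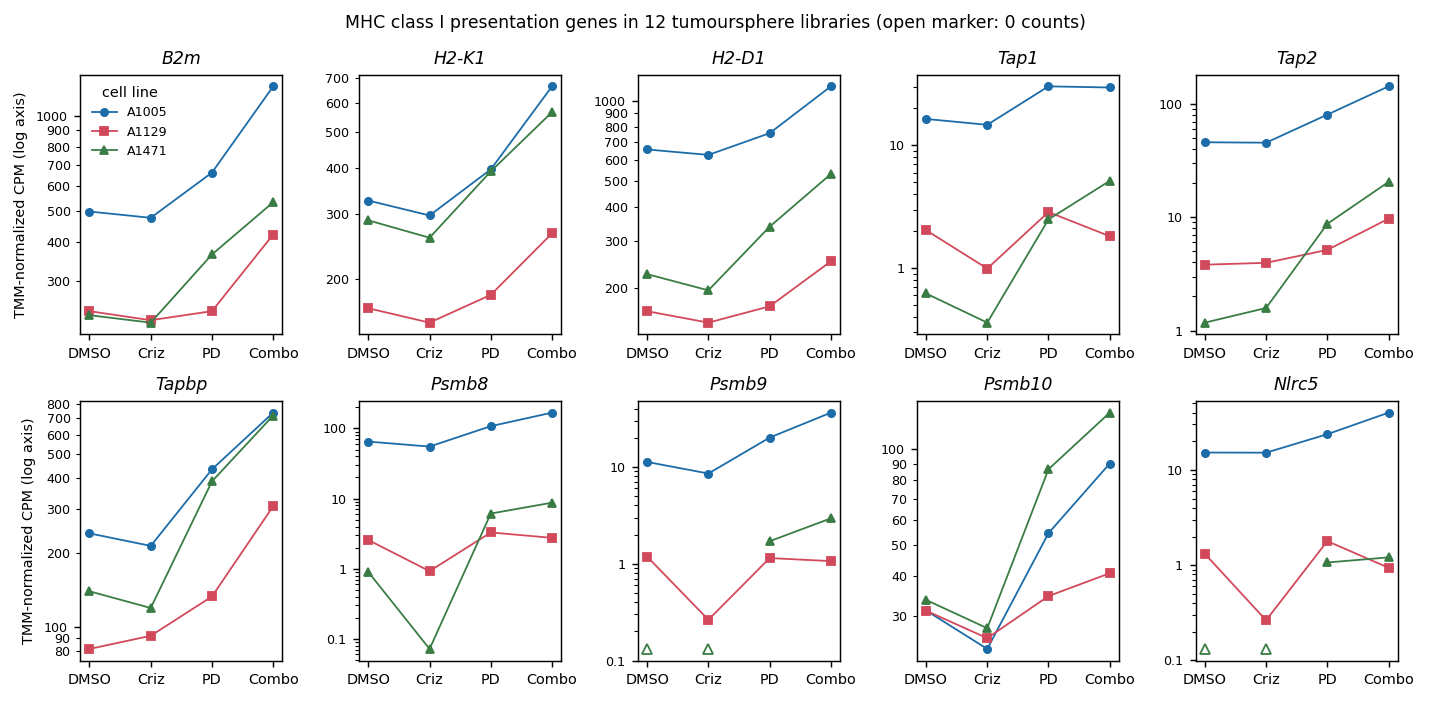
TMM-normalized CPM of each gene on a log axis, by treatment (DMSO, Crizotinib, PD173074 and Combo), with 1 point per library, a line joining libraries of the same cell line, and open markers where the count was 0. Tapbp and Psmb10 are the genes whose 3 Combo libraries all lie above their 3 DMSO libraries, and Psmb8, Psmb9, Tap1, Tap2 and Nlrc5 are far higher in A1005 than in the other lines.

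To ask what dual inhibition did to the set, Combo was compared with DMSO. Tapbp and Psmb10 rose, and the fitted log2 fold change was above 0 for all 10 genes, with a median of 1.37 against 0.02 over all genes tested. In the unpaired fit, the design stated in the study's methods, 2 of 10 members were called higher (edgeR quasi-likelihood test, Benjamini-Hochberg adjusted p under 0.05), where 6.1% of all genes tested were called higher. A fit blocked by cell line, which compares each line with itself, called 8 of 10, against a background of 28.6%. The exceptions in the blocked fit were Tap1 (adjusted p = 0.0556) and Nlrc5 (adjusted p = 0.124). A value higher in all 3 lines was found for 7 genes and for 34% of genes tested, and 2 genes had groups that did not overlap, which 13.8% had. Both unpaired calls were lost without any 1 of the 3 lines: for Tapbp the adjusted p was 0.0685, 0.0682 and 0.389 without A1005, A1129 and A1471, and for Psmb10 it was 0.181, 0.0525 and 0.259.

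The genes for the surface complex came first in level. B2m (Ensembl ENSMUSG00000060802, chromosome 2, 122147686 to 122153083 on mm10) encodes the light chain shared by all class I molecules. Its levels in A1005, A1129 and A1471 were 498, 241 and 234 CPM with DMSO, 476, 226 and 222 CPM with Crizotinib, 662, 241 and 364 CPM with PD173074, and 1240, 421 and 533 CPM with Combo. Each line was highest with Combo, although the A1129 Combo value lay below the A1005 DMSO value and the groups overlapped. The log2 fold change of Combo over DMSO was 1.17 ± 0.54 (SE, adjusted p = 0.185) in the unpaired fit and 1.10 ± 0.13 (adjusted p = 1.09e-04) with the block. Without A1005 the unpaired call for B2m was reached (1.02, adjusted p = 0.0414).

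H2-K1 (ENSMUSG00000061232, chromosome 17, 33996017 to 34000347) encodes a classical heavy chain, the part of the molecule that holds the peptide. It measured 327, 167 and 289 CPM with DMSO, 298, 153 and 259 CPM with Crizotinib, 397, 181 and 392 CPM with PD173074, and 666, 266 and 567 CPM with Combo in A1005, A1129 and A1471. The order of the lines was the same under every treatment. Its Combo change was 0.94 ± 0.43 (adjusted p = 0.185) unpaired and 0.89 ± 0.10 (adjusted p = 7.1e-05) with the block. H2-D1 (ENSMUSG00000073411, chromosome 17, 35262730 to 35267499), the other classical heavy chain gene in this reference, stood at 657, 163 and 225 CPM with DMSO and at 1132, 251 and 532 CPM with Combo. With PD173074 it was at 756, 170 and 338 CPM and with Crizotinib at 627, 148 and 195 CPM. Here A1005 was apart, above every library of the other lines under each treatment. The change was 0.87 ± 0.81 (adjusted p = 0.533) unpaired and 0.89 ± 0.14 (adjusted p = 5.09e-04) with the block.

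The class I heavy chain genes share sequence, and the strain of the lines is not given in the sources used here, so reads may have been split between them. Of the 50-base windows along the principal transcript, 8.79% for H2-K1 and 14.3% for H2-D1 also occur in another gene, and 6.94% of H2-K1 windows occur in H2-D1. B2m, Psmb10 and Nlrc5 had no shared window.

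Peptide supply and loading held the gene with the smallest adjusted p with the block in Combo. Tapbp (ENSMUSG00000024308, chromosome 17, 33915899 to 33929292) encodes tapasin, the chaperone that bridges TAP and the empty heavy chain. Its levels in A1005, A1129 and A1471 were 239, 81.6 and 140 CPM with DMSO, 213, 92.3 and 119 CPM with Crizotinib, 434, 133 and 388 CPM with PD173074, and 735, 308 and 716 CPM with Combo. The lowest Combo library was above the highest DMSO library. The log2 fold change was 1.93 ± 0.57 (adjusted p = 0.0477) unpaired and 1.97 ± 0.20 (adjusted p = 3.56e-05) with the block, and in single lines it was 1.62, 1.92 and 2.36. Of its exon bases 24.9% overlap the antisense gene Gm19412, which had 13 to 77 counts per library where Tapbp had 1241 to 13231, and 21% of its windows occur in another gene.

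Tap1 and Tap2 together encode the TAP transporter and lie with Psmb8 and Psmb9 in a cluster of the class II region on chromosome 17, Tap1 (ENSMUSG00000037321) at 34187553 to 34197225 and Tap2 (ENSMUSG00000024339) at 34203527 to 34216321. Tap2 measured 46.0, 3.81 and 1.17 CPM with DMSO, 45.6, 3.96 and 1.58 CPM with Crizotinib, 80.6, 5.15 and 8.76 CPM with PD173074, and 143, 9.71 and 20.5 CPM with Combo. A1005 was far above the other lines under every treatment. Each line was highest with Combo, and the change was 1.77 ± 1.71 (adjusted p = 0.555) unpaired and 2.16 ± 0.43 (adjusted p = 0.00199) with the block. Tap1 was at 16.4, 2.04 and 0.622 CPM with DMSO, 14.7, 0.991 and 0.359 CPM with Crizotinib, 30.2, 2.86 and 2.49 CPM with PD173074, and 29.6, 1.82 and 5.13 CPM with Combo. Unlike Tap2, it was not higher with Combo than with DMSO in A1129. Its change did not pass either fit, at 0.94 ± 1.65 (adjusted p = 0.773) unpaired and 1.15 ± 0.46 (adjusted p = 0.0556) with the block. Tap1 and Psmb9 share 212 exon bases on opposite strands and the strand setting of the counting is not given in the sources used here, so reads there cannot be assigned with certainty.

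**Figure D2:**
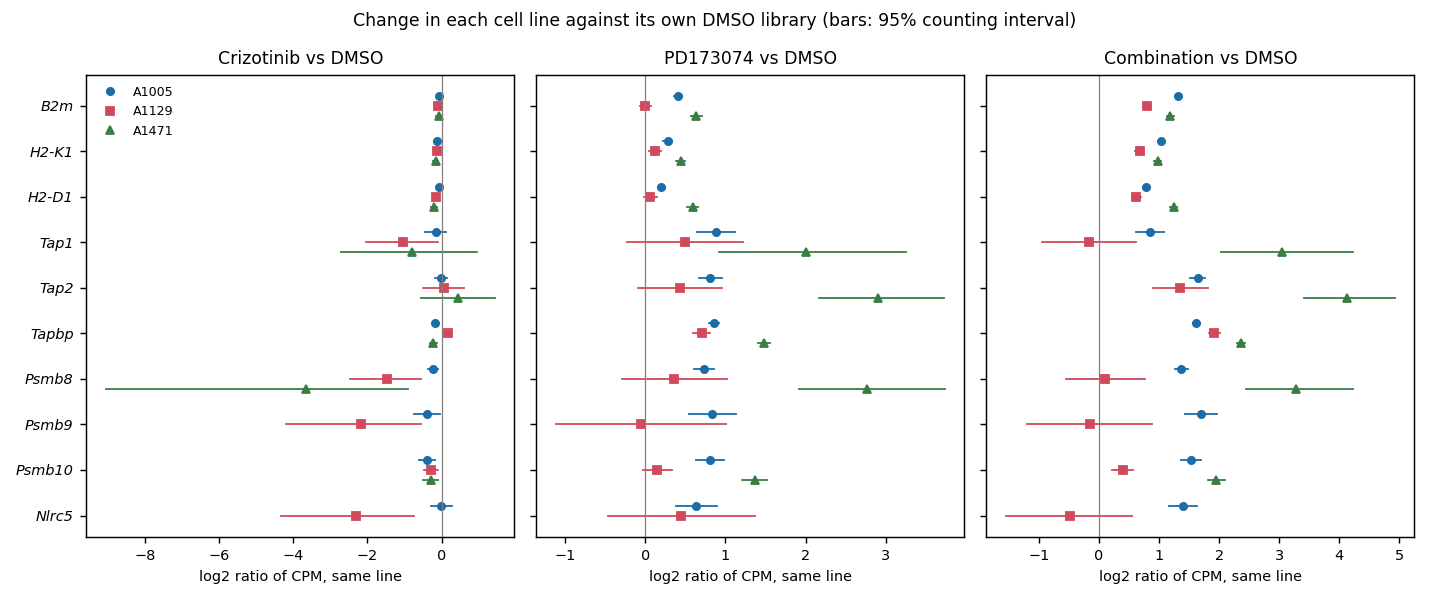
Log2 ratio of CPM in each cell line against that line's own DMSO library, for Crizotinib, PD173074 and Combo, with exact 95% counting intervals as bars (the x axes differ in range). With Combo the A1005 and A1471 points lie right of 0 for every gene plotted, whereas in A1129 Tap1, Psmb8, Psmb9 and Nlrc5 have intervals that include 0, and Psmb9 and Nlrc5 in A1471 are not plotted because a library had 0 counts.

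Among the immunoproteasome subunits only Psmb10 had DMSO levels that were alike in the 3 lines. Psmb10 (ENSMUSG00000031897, chromosome 8, 105935735 to 105938444) encodes the subunit that takes the place of Psmb7. It measured 31.2, 31.2 and 33.7 CPM with DMSO, 23.6, 25.6 and 27.5 CPM with Crizotinib, 54.6, 34.6 and 86.6 CPM with PD173074, and 90.3, 40.9 and 130 CPM with Combo. None of the groups other than PD173074 and Combo overlapped with each other. Its Combo change was 1.44 ± 0.41 (adjusted p = 0.0408) unpaired and 1.32 ± 0.28 (adjusted p = 0.00264) with the block, and the single-line log2 ratio was smallest in A1129 at 0.39.

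Psmb8 and Psmb9 encode the subunits that replace Psmb5 and Psmb6, Psmb8 (ENSMUSG00000024338) at 34197721 to 34201454 and Psmb9 (ENSMUSG00000096727) at 34181987 to 34187764 on chromosome 17. Psmb8 was at 65.0, 2.57 and 0.898 CPM with DMSO, 55.2, 0.924 and 0.0719 CPM with Crizotinib, 108, 3.29 and 6.12 CPM with PD173074, and 168, 2.76 and 8.75 CPM with Combo. A1005 was the high line and A1129 was almost level between DMSO and Combo, at 39 and 44 counts. The change was 1.39 ± 2.26 (adjusted p = 0.751) unpaired and 1.49 ± 0.54 (adjusted p = 0.0362) with the block, a call that was lost without A1005 (adjusted p = 0.132) or without A1129 (adjusted p = 0.0531). Psmb9 had 144, 18 and 0 counts with DMSO, 125, 4 and 0 with Crizotinib, 332, 16 and 24 with PD173074, and 653, 17 and 39 with Combo. In A1471 the Combo level was 14.2-fold above a floor of 3 counts in the DMSO library. The lower counting limit of that log2 ratio was 3.46. The change was 1.70 ± 2.17 (adjusted p = 0.671) unpaired and 1.70 ± 0.64 (adjusted p = 0.0458) with the block, again lost without A1005 (adjusted p = 0.223) and also without A1471 (adjusted p = 0.0683).

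Set against the constitutive partner, the immunoproteasome share (CPM per kb of the immunoproteasome gene over the sum of both) was higher with Combo than with DMSO in every line and pair. For Psmb10 over Psmb10 plus Psmb7 the share went from 20.9, 23.4 and 16.8% with DMSO to 42.8, 38.2 and 56.9% with Combo in A1005, A1129 and A1471. For Psmb8 with Psmb5 it went from 19.2, 1.06 and 0.204% to 39.1, 1.71 and 2.63%, and for Psmb9 with Psmb6 from 3.25, 0.345 and 0% to 10.8, 0.426 and 0.815%. The pairs therefore differed by line, since A1005 was the one line with Psmb8 above 3% of its pair at these lengths. The level of these shares depended on the exon length used: with principal transcript lengths the Combo share of Psmb10 was 24.8, 21.4 and 36.8%. The constitutive genes Psmb5, Psmb6 and Psmb7 had Combo changes of -0.36, -0.26 and -0.44, which did not pass unpaired (adjusted p = 0.582, 0.397 and 0.389) and passed with the block (adjusted p = 0.028, 0.035 and 0.0303). In A1129 the Psmb8 and Psmb9 counts were level between DMSO and Combo, so the higher share there came with lower Psmb5 (63.4 and 42.2 CPM) and Psmb6 (175 and 127 CPM).

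**Figure D3:**
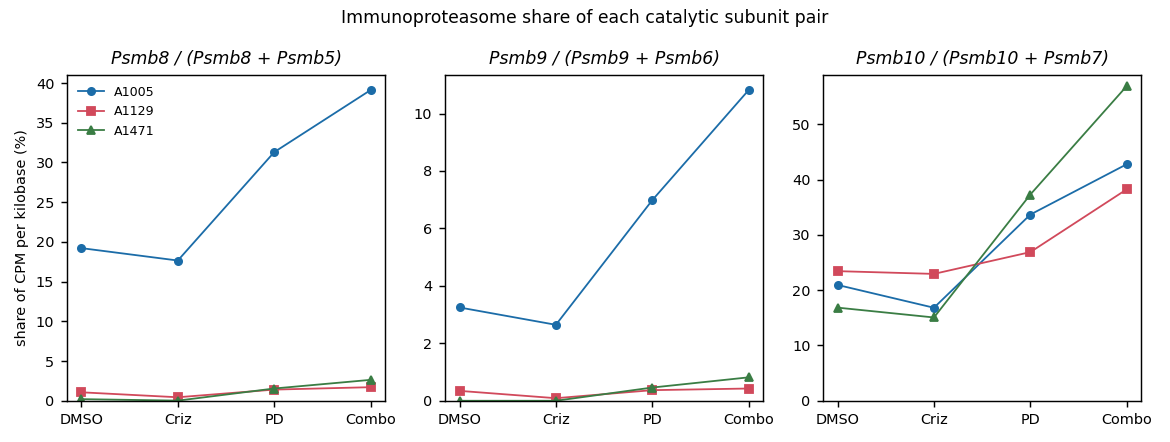
Share (%) of each immunoproteasome gene in the summed CPM per kilobase of exon of itself and the constitutive subunit it replaces, by treatment, with 1 point per library and lines joining libraries of a cell line (each y axis starts at 0 and has its own range). The Psmb10 share lies between 16.8 and 23.4% with DMSO and between 38.2 and 56.9% with Combo, while the Psmb8 and Psmb9 shares are low outside A1005.

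Nlrc5 (ENSMUSG00000074151, chromosome 8, 94434356 to 94527272), the class I transactivator, had the lowest mean level per kilobase with DMSO. It had 195, 20 and 0 counts with DMSO in A1005, A1129 and A1471, 222, 4 and 0 with Crizotinib, 392, 25 and 15 with PD173074, and 718, 15 and 16 with Combo. A1471 was thus at 0 in both groups without PD173074 and at 15 and 16 counts in both groups with it. The latter levels were 5.15-fold and 5.83-fold above the floor of 3 counts in DMSO. Lower 95% counting limits of their log2 ratios were 1.89 and 2.07. A1129 did not follow, with a log2 ratio of Combo over DMSO of -0.48 (95% counting interval -1.55 to 0.55). The change was 1.35 ± 2.32 (adjusted p = 0.768) unpaired and 1.16 ± 0.60 (adjusted p = 0.124) with the block.

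The lines therefore did not move as one. Median log2 ratios of Combo over DMSO were 1.38 over the 10 genes in A1005, 0.50 over the 10 genes in A1129 and 2.16 over the 8 genes with counts in both libraries in A1471. In A1129 the counting interval lay above 0 for 6 genes (B2m, H2-K1, H2-D1, Tap2, Tapbp and Psmb10) and included 0 for Tap1, Psmb8, Psmb9 and Nlrc5. In A1005 and A1471 it lay above 0 for all 10, the genes at 0 in A1471 by their lower limit. Counting intervals cover counting error only, since each line had 1 library per treatment. No share of all genes tested is given here for these counts and medians of single lines, so they stand without a background.

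Crizotinib alone was compared with DMSO to ask what Met inhibition did by itself. No member was called in either direction, unpaired or with the block (edgeR, adjusted p = 1 for each), and 0% of genes tested were called in either fit, that is 0% unpaired and 0% with the block. At an unadjusted p under 0.05 the count of members was 0 in both fits, and DESeq2, which gave no adjusted p for Psmb8 and Nlrc5 in any comparison, also called 0. The median member change was -0.13 unpaired. Values were lower in all 3 lines for 6 members (B2m, H2-K1, H2-D1, Tap1, Psmb8 and Psmb10) and for 17.7% of genes tested, and 1 of them, Psmb10, did not overlap between groups (0.853% of genes). The lowest ratio was that of Psmb8 in A1471, at -3.64 (13 to 1 counts, 95% counting interval -9.05 to -0.91). In A1129 the ratios were -1.47 (39 to 14 counts) for Psmb8, -2.16 (18 to 4 counts) for Psmb9 and -2.32 (20 to 4 counts) for Nlrc5, and their 95% counting intervals were -2.47 to -0.56, -4.19 to -0.56 and -4.32 to -0.74. Psmb9 and Nlrc5 had 0 counts in A1471 in both groups, Tap2 was higher in A1129 and A1471, and Tapbp was higher in A1129.

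PD173074 alone gave values above DMSO for most members but few calls. A value higher in all 3 lines was found for 9 members (24.1% of genes tested), the exception being Psmb9 with 18 and 16 counts in A1129, and 1 did not overlap between groups (3.35% of genes), which was Psmb10. No member was called in the unpaired fit, at an unadjusted p under 0.05 or by DESeq2, where 0% of genes were called higher by edgeR. With the block Tapbp rose (1.02 ± 0.19, adjusted p = 0.0263), against a background of 1.62%, and this call was lost without A1005, A1129 or A1471 (adjusted p = 0.107, 0.0752 and 0.188), while without A1129 Psmb10 was called (1.09, adjusted p = 0.042). The median single-line ratios of A1005, A1129 and A1471 were 0.77, 0.26 and 1.42. In A1129, B2m stood at 241 CPM with DMSO and with PD173074, whereas in A1471 it went from 234 to 364 CPM. Among the low genes of A1471, Psmb9 had 0 and 24 counts with DMSO and PD173074. The latter level was 8.25-fold above the floor of 3 counts, and the lower counting limit of the log2 ratio was 2.63. In the same libraries Tap2 had 17 and 123 counts, Psmb8 13 and 86 counts and Tap1 9 and 35 counts.

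Combo was then compared with each inhibitor alone. Against Crizotinib all 10 members had higher values in all 3 lines, a count for which no share of all genes is given here. Tapbp (2.05 ± 0.57, adjusted p = 0.0414) and Psmb10 (1.77 ± 0.41, adjusted p = 0.02) were called unpaired, where 5.4% of genes tested were called higher, and all 10 were called with the block, where 27.4% were. The smallest blocked change was 1.02 for H2-D1 (adjusted p = 2.32e-04) and the largest 2.44 for Psmb9 (adjusted p = 0.0105), which was lost without A1005 (3.79, adjusted p = 0.0553). The Nlrc5 call (1.63, adjusted p = 0.0402) was lost without A1005, A1129 or A1471 (adjusted p = 0.0806, 0.0709 and 0.0654). The unpaired Tapbp call was lost without A1005, A1129 or A1471 (adjusted p = 0.0673, 0.0536 and 0.387), and that of Psmb10 without A1005 or A1471 (adjusted p = 0.129 and 0.18).

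Against PD173074 none of the members was called unpaired, at an unadjusted p under 0.05 or by DESeq2, where edgeR called 0.838% of genes tested higher. With the block 4 rose, against a background of 19.6%: Tapbp by 0.94 ± 0.19 (adjusted p = 0.00404), B2m by 0.75 ± 0.13 (adjusted p = 0.00207), H2-K1 by 0.61 ± 0.10 (adjusted p = 0.00139) and H2-D1 by 0.60 ± 0.14 (adjusted p = 0.00763). These are the genes of the surface complex and of tapasin, but the calls did not follow the size of the change. The largest change was that of Tap2 at 1.02 ± 0.41, which was not called (adjusted p = 0.0681). Psmb9, Psmb10 and Psmb8 were at 0.66 ± 0.60, 0.55 ± 0.27 and 0.41 ± 0.51, also not called (adjusted p = 0.409, 0.128 and 0.548). For Tap1 and Nlrc5 the values were 0.21 and 0.21 with the block (adjusted p = 0.73 and 0.796), and the sign turned without A1471 for Tap1 (-0.26) and without A1005 for Nlrc5 (-0.34). Without A1471 Tap2 was called (0.85, adjusted p = 0.0154), and without A1129 so was Psmb10 (0.66, adjusted p = 0.0346).

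To ask whether both inhibitors together differed from the sum of each alone, the departure from additivity was tested as the effect of PD173074 in the presence of Crizotinib minus its effect in DMSO. Unpaired, no member passed (edgeR; 0 at an unadjusted p under 0.05, and 0 by DESeq2), and 0.00723% of genes tested did so in the higher direction. With the block 4 members departed upwards, against a background of 5.46%: Tapbp by 1.001 ± 0.27 (adjusted p = 0.0339), B2m by 0.83 ± 0.19 (adjusted p = 0.0181), H2-K1 by 0.75 ± 0.14 (adjusted p = 0.00818) and H2-D1 by 0.74 ± 0.20 (adjusted p = 0.033). Their PD173074 effects with the block were 0.35 in DMSO and 1.18 in Crizotinib for B2m, 0.28 and 1.03 for H2-K1, 0.28 and 1.02 for H2-D1, and 1.02 and 2.03 for Tapbp. For the immunoproteasome, transporter and Nlrc5 genes the fitted departures were 0.67 to 1.40 and did not pass. Of these blocked calls 0 were kept without A1005, 2 without A1129 (B2m, adjusted p = 0.0474, and H2-K1, adjusted p = 0.0341) and 0 without A1471, while the fitted departures without single lines stayed at 0.76 to 0.94 for B2m, 0.69 to 0.79 for H2-K1, 0.68 to 0.79 for H2-D1 and 0.98 to 1.03 for Tapbp. Without A1005 the adjusted p was 0.0871 for B2m, 0.0587 for H2-K1, 0.0999 for H2-D1 and 0.101 for Tapbp. Without A1471 it was 0.076, 0.0663, 0.0642 and 0.0735 in the same order, and without A1129 it was lost for H2-D1 (0.141) and Tapbp (0.128).

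**Figure D4:**
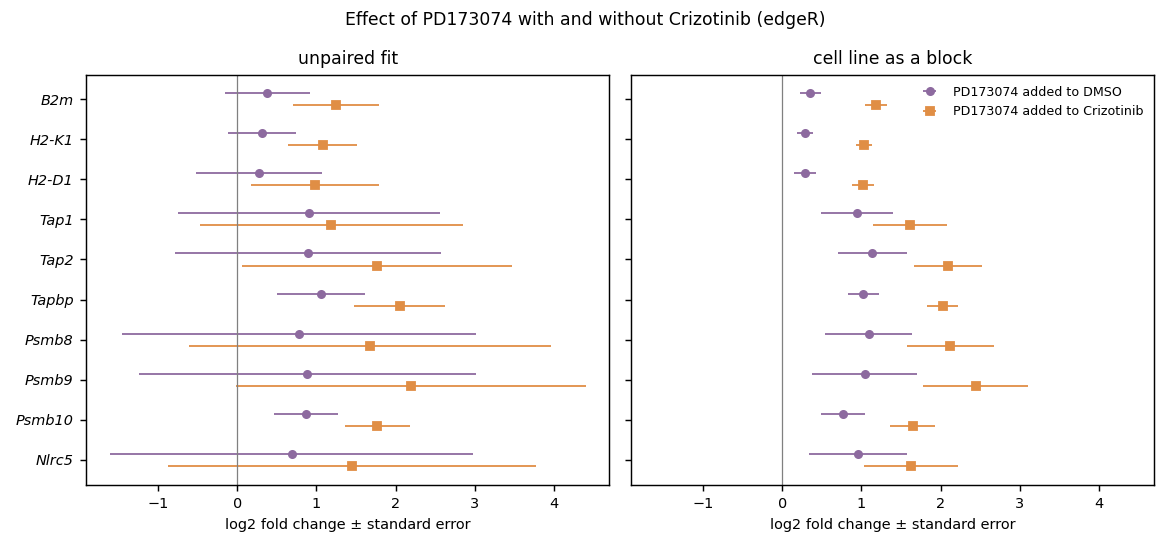
Log2 fold change ± standard error (edgeR) for PD173074 added to DMSO and for PD173074 added to Crizotinib (Combo over Crizotinib), in the unpaired fit and in the fit blocked by cell line. In the blocked fit the effect in Crizotinib lies right of the effect in DMSO for every gene, and the difference passed the test for B2m, H2-K1, H2-D1 and Tapbp.

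The partners in peptide loading, trimming and supply moved in both directions with Combo. Of these 18 genes, 1 was called higher and 2 lower unpaired, and 4 higher and 7 lower with the block, with a median change of -0.18. Over all genes tested, 6.1% were called higher and 8.28% lower unpaired, and 28.6% higher and 26.2% lower with the block. Tapbpl, a tapasin relative that edits peptides on class I, rose by 2.09 ± 0.56 (adjusted p = 0.0346), from 10.3, 4.28 and 6.49 CPM with DMSO to 35.7, 15.9 and 38.1 CPM with Combo. Thop1, a cytosolic peptidase that destroys class I peptides, fell by 0.92 (adjusted p = 0.0388), and Psme3, a nuclear proteasome activator, fell by 0.64 (adjusted p = 0.0487). Erap1, which trims peptides to length in the endoplasmic reticulum, stood at 0.89 (adjusted p = 0.208, and 0.00554 with the block). The interferon-inducible proteasome activators Psme1 and Psme2 stood at 0.99 (adjusted p = 0.114, and 8.24e-04 with the block) and 1.02 (adjusted p = 0.0973, and 0.00426 with the block). Calr, a chaperone of the loading complex, passed neither fit at 0.28 (adjusted p = 0.317, and 0.124 with the block).

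Of 17 further class I and class Ib heavy chain genes, 13 were tested, and 0 were called unpaired and 9 higher with the block by edgeR, where 28.6% of genes tested were. At an unadjusted p under 0.05, for which no share of all genes is given here, the unpaired count was 4. The median change was 1.24. H2-T23, which encodes Qa-1, a ligand of inhibitory NK cell receptors, was at 7.88, 1.05 and 2.28 CPM with DMSO and at 25.2, 11.2 and 23.5 CPM with Combo. Its groups did not overlap, and its change of 2.42 ± 0.88 missed the threshold unpaired (adjusted p = 0.101) and passed with the block (adjusted p = 1.3e-04). Class II genes were low, and 8 of 11 had 3 counts or fewer in every library. Cd74, the invariant chain, named after its values were seen, had 0, 0 and 3 counts with DMSO, 78, 1 and 33 with PD173074 and 226, 9 and 63 with Combo in A1005, A1129 and A1471. Its adjusted p for Combo over DMSO was 0.0517 unpaired and 5.5e-05 with the block. Ciita, the class II counterpart of Nlrc5, went from 2, 6 and 2 counts under DMSO to 6, 102 and 10 under Combo, so that its highest library was A1129, the line in which Nlrc5 was not higher. The change of Ciita was 3.39 ± 1.44 (adjusted p = 0.152) unpaired and 3.13 ± 0.57 (adjusted p = 0.00113) with the block.

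Genes that carry the interferon signal moved in both directions. Of 19 genes from interferon receptors to STAT and IRF factors, 3 were called higher and 2 lower unpaired, and 12 higher and 3 lower with the block, against the same shares of all genes tested (6.1% and 8.28% unpaired, 28.6% and 26.2% with the block). Stat2, part of the complex that type I interferon activates, rose by 1.84 ± 0.42 (adjusted p = 0.0177), and Ifngr2, a chain of the interferon-γ receptor, by 1.33 ± 0.21 (adjusted p = 0.00313). Irf8, an interferon regulatory factor, fell by 2.96 (adjusted p = 0.00137), from 28.6, 37.3 and 27.8 CPM to 5.67, 3.57 and 2.72 CPM. Irf1, a direct activator of class I promoters, was at 62.9, 34.5 and 70.3 CPM with DMSO and at 207, 81.5 and 233 CPM with Combo, without overlap (1.64 ± 0.50, adjusted p = 0.0553, and 2.02e-05 with the block).

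Of 9 NF-κB subunits and inhibitors 3 were called higher unpaired and 6 with the block (6.1% and 28.6% of genes tested), and none was called lower in either. The 3 unpaired calls were Relb (1.24 ± 0.16, adjusted p = 0.00135), a subunit, and the feedback inhibitors Nfkbie (2.45 ± 0.69, adjusted p = 0.0419) and Tnfaip3 (2.17 ± 0.41, adjusted p = 0.00737). At an unadjusted p under 0.05, for which no share of all genes is given here, 5 of the 9 passed unpaired. Rfx5, which anchors NLRC5 and CIITA at their promoters, rose by 1.07 ± 0.21 (adjusted p = 0.00834), from 26.2, 18.1 and 24.5 CPM to 42.4, 43.8 and 58.5 CPM. In its list of 11 promoter factors and Polycomb subunits it was the 1 gene called higher unpaired, with 3 called lower, among them the Polycomb subunits Eed (-0.93) and Suz12 (-0.85). With the block 2 genes of that list were called higher and 5 lower. Over all genes tested, 6.1% were called higher and 8.28% lower unpaired, and 28.6% and 26.2% with the block. Cd274, which encodes the checkpoint ligand PD-L1, rose by 1.43 ± 0.39 (adjusted p = 0.037), from 2.19, 1.05 and 1.45 CPM to 3.28, 4.14 and 5.28 CPM. Ulbp1, a ligand of the activating NK receptor NKG2D, fell by 1.40 (adjusted p = 0.0337). Of 10 ERK target genes, transcripts downstream of the inhibited receptors, 8 were called lower with Combo unpaired, where 8.28% of genes tested were.

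The members' own patterns were compared across the 12 libraries after each line's mean was removed. This leaves the treatments, the differences between lines in response to them, and the noise. Over the 45 pairs of members Pearson's r had a median of 0.891 and ran from 0.705 to 0.993. The 5 tested genes outside the lists whose pattern was closest to the members' mean were Gbp9 (r = 0.992), Ifit3 (0.988), C1rl (0.986), Scube3 (0.986) and Gbp3 (0.985). These correlations are descriptions over 12 libraries that share 3 lines and 4 treatments. No value for pairs of other genes is given here, so they do not show a pattern particular to the members.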

How the data were processed

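RNA was sequenced from 12 tumoursphere libraries of 3 lines and 4 treatments. The authors sequenced on a NextSeq500 and deposited 1 table of raw counts per Ensembl gene. The processing notes name bcl2fastq, STAR, HTSeq and mm10. Versions, the annotation release and the strand setting are not given in the sources used here. Totals were 13031492 to 17750476 counts per library. Intervals and the floor of 3 counts cover counting error only.

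Low genes were removed by filterByExpr at a minimum count of 10 and a total of 15. TMM scaling and edgeR 4.0.16 (quasi-likelihood test, R 4.3.3) were applied to all 12 libraries, unpaired as in the study's methods, with Benjamini-Hochberg adjustment over 13836 genes and a threshold of 0.05. Lines pair the libraries by the labels. After group means were removed, libraries of 1 line correlated with a mean r of 0.871 (lowest 0.766 of 18 pairs) and those of different lines with a mean of -0.422, so values with the line as a block are printed beside the unpaired ones. Other alternatives were DESeq2 1.42.0, its size factors, total counts, no filter, only the groups compared, a log2 change of 1.5 or more in size and leaving out each line. The study's methods name a log2 change of 1.5 as a criterion beside the FDR, which the main calls here did not use. Principal transcript lengths were added after the values were seen. On counts simulated for Combo against DMSO with 200 genes shifted by 2 on the log2 scale and a log2 SD of 0.5 between lines, edgeR recovered 94 of 200 among 13784 genes without the block and 200 with it, with 0 and 17 false calls. DESeq2 without the block recovered 167 with 0 false calls. At an SD of 0 edgeR recovered 199 without and with the block, with 8 and 5 false calls. The simulated shift was the same in every line, so this run cannot show how either fit treats lines that respond differently. Nor can it show recovery for genes whose lines lie further apart than the simulated SD. Psmb8 was such a gene, at 65.0, 2.57 and 0.898 CPM with DMSO in A1005, A1129 and A1471. The unpaired Combo changes of the members over DMSO, 0.87 to 1.93, were also smaller than the simulated shift. No 2 of the 12 libraries were identical.

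The members and the gene lists were chosen with earlier results of these data known. All members were named, with the 3 largest called changes of each list in Combo, 13 genes of general interest in the pathway and the 5 genes closest in pattern. Some items under this rule are not reported here. Exon lengths and overlaps came from GENCODE on mm10 (GRCm38), promoters from RefSeq on GRCm38.p6. Amino acid sequences were not used here. Intervals of single-line ratios are exact binomial at 95%. Python 3.11.15 was used for tables and plots.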

Additional observations from a re-analysis of the deposited data

Results flagged for a closer look

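With the line as a block, the effect of PD173074 was larger in Crizotinib than in DMSO for B2m (a log2 difference of 0.83), H2-K1 (0.75), H2-D1 (0.74) and Tapbp (1.001), by the test of the difference itself. The unpaired fit called none of these.

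For Tapbp the log2 ratio of Crizotinib over DMSO in A1005, A1129 and A1471 was -0.17, 0.18 and -0.22, so 1 line moved the opposite way to the others. This difference between lines was not tested, since each line had 1 library per treatment.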

How the results depend on the processing

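The main limit is the spread between 3 lines. For Combo against DMSO the unpaired count of 2 members became 8 with the line as a block, 0 without the filter, 0 with only the groups compared and 1 where changes under 1.5 (log2) were left out, and it was 0 to 1 without single lines. For Combo against Crizotinib the count of 2 became 10 with the block, 1 without the filter, 0 with only the groups compared and 0 to 2 without single lines. The block gave 1 for PD173074 against DMSO (0 to 1 without single lines), 4 for Combo against PD173074 and 4 for the departure from additivity (0 to 2 without single lines). The loss with only the groups compared goes with 6 libraries in place of 12, and without the filter 28504 genes were tested in place of 13836. No other cause was tested. DESeq2, its size factors and total counts left every count of called members unchanged. Directions turned for Tap2, Tapbp, Tap1 and Nlrc5, none of them called in that comparison. For Crizotinib against DMSO, Tap2 was at -0.0060 with total counts and -0.018 to 0.15 without single lines, and Tapbp with the block was at -0.20 to 0.0049. For Combo against PD173074, Tap1 was at -0.10 to 0.39 without single lines (-0.26 to 0.48 with the block) and Nlrc5 at -0.40 to 0.71 (-0.34 to 0.60 with the block). Principal transcript lengths moved 7 of 22 levels and shares.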
